A study of Oryza sativa Japonica Group with 29 samples.

Results

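The 150 loci described here are those whose transcripts rose most after drought in both genotypes of a rice root experiment. They were chosen from 55986 listed loci on their own measured values. For each locus the difference of group means of log2(TPM + 1), where TPM is the deposited transcript abundance scaled to gene length and to a fixed library total, was taken between drought and normal roots in each genotype, and the smaller of the 2 differences ranked the loci. Loci whose watered level was higher in the over-expression plants by 0.7 or more were passed over. The drought rises and the watered difference therefore chose the members and are given as a description, with no test. The difference between the genotypes after drought did not rank the loci, but it is not independent of the choice. It equals the over-expression rise plus the watered difference minus the wild-type rise. It is thus made of the values that chose the members. Its p-values are for single loci, and the members' shares set beside all loci are a description.

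Root RNA came from hydroponic rice seedlings 25 days old, at the 4-leaf stage. The groups were OsNMCP1-OE roots under drought (OE drought, 3 libraries), ZH11-WT roots under drought (WT drought, 3 libraries), OsNMCP1-OE roots in normal conditions (OE normal, 2 libraries) and ZH11-WT roots in normal conditions (WT normal, 3 libraries). Drought was 3 h without water supply. ZH11 is the wild-type cultivar, and the OE plants over-express OsNMCP1, a protein resembling the lamins that line the nucleus in animals; neither promoter nor number of lines was stated in the sources used here. Replicates are called biological, and nothing says whether each was a culture of its own. The p-values below therefore cover the spread among these libraries, which may be partly technical.

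Plant roots that lose water accumulate the hormone abscisic acid (ABA), and ABA-dependent and ABA-independent transcription factors then switch on protective genes such as those for dehydrins. Jasmonates, hormones made from fatty acids by lipoxygenase, allene oxide synthase and further enzymes, also accumulate under wounding and osmotic stress, and their JAZ repressors are themselves jasmonate-induced. Genes of both branches were among the named members.

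The labels give genomic DNA as the molecule of the 6 drought libraries although their titles name RNA sequencing, and the libraries were taken as RNA from the titles. NMCP1 itself stood at 346.6 to 452.2 TPM in OE drought against 28.1 to 46.4 TPM in WT drought, and at 167.0 to 184.1 TPM in OE normal against 35.5 to 37.6 TPM in WT normal, with no overlap between genotypes. Depth per library, as implied by coverage over FPKM, was 5.79 to 11.95 gigabases. Among the members 1 library, WT drought replicate 3, was unlike the rest of its group. Across the 150 members its log2(TPM + 1) values correlated at 0.639 and 0.767 with WT drought replicates 1 and 2, which correlated at 0.921 with each other, and at 0.843 to 0.862 with the 3 OE drought libraries. Over all tested loci WT drought replicate 3 correlated at 0.927 and 0.944 with WT drought replicates 1 and 2. Its correlations with the OE drought libraries there were 0.921 to 0.929. These correlations are across loci, which are not independent replicates. The numbers of members called between OE and WT drought are also given without this library, as are the LIP9, DREB1F, AOS2 and CKX5 differences. Calls on the gene lists are not.

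After drought the members made up 4.90, 4.96 and 4.03% of all TPM in the OE libraries and 2.16, 3.00 and 3.21% in the WT libraries. In watered roots they made up 0.163 and 0.166% in OE and 0.129, 0.140 and 0.126% in WT. All 3 OE drought libraries lay above all 3 WT drought libraries. Every drought library lay above every watered one, which follows largely from the choice of members. A few members carried much of this: the 3 most abundant held 23.0% of the members' TPM in OE drought and 19.2% in WT drought, and the top 10 held 41.9% and 38.1%.

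**Figure D1:**
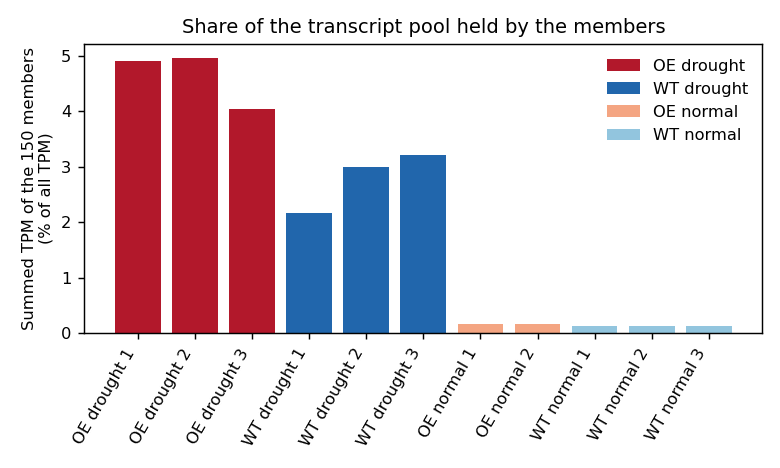
Summed TPM of the 150 members as a percentage of all TPM, one bar per library, coloured by group. The OE drought bars (4.03 to 4.96%) stand above the WT drought bars (2.16 to 3.21%), and the watered bars are at most 0.166%.

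By the rule, the smaller rise ran from 3.27 to 7.37 on the log2 scale, with a median of 3.96. The last locus inside stood at 3.27 and the first outside at 3.26, so the edge marks no gap in the values. The median rise was 4.68 in OE (3.28 to 8.82) and 4.18 in WT (3.27 to 7.93). The OE rise was the larger in 96 members and the WT rise in 54, a split that the limit on the watered difference tilts towards OE. For all 150, every drought library lay above every watered library, which the rule largely sets by asking for a large mean rise in both genotypes. No share of all tested loci was counted for this or for the split of rises.

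**Figure D2:**
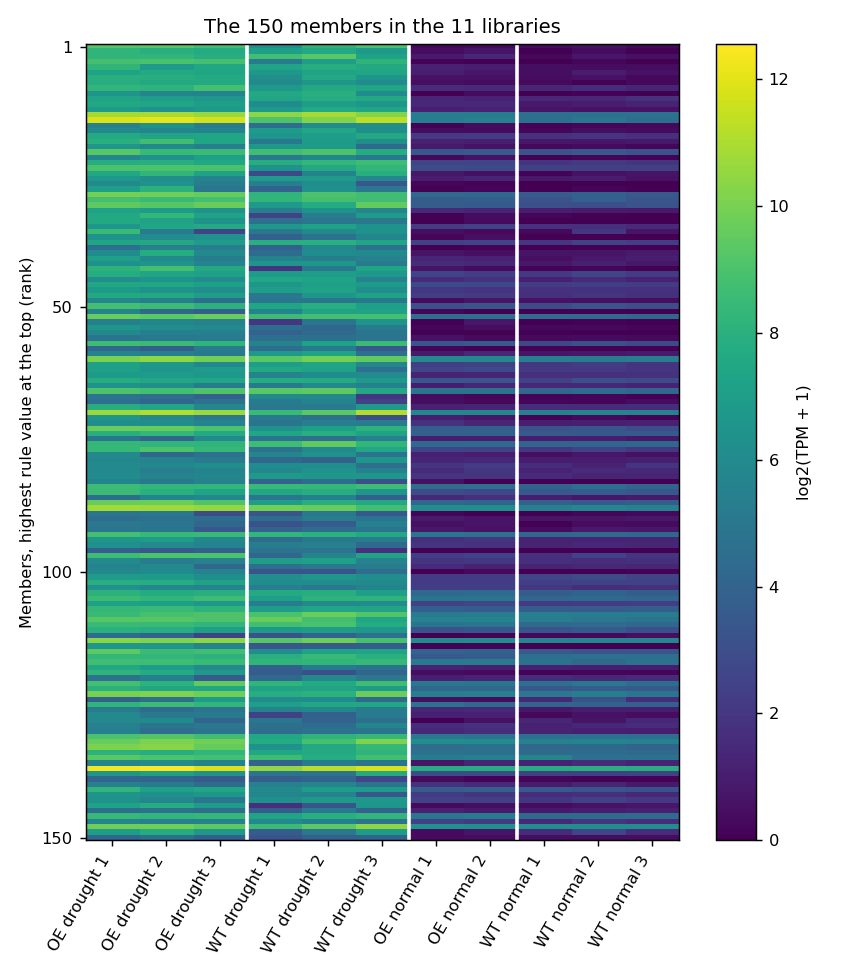
log2(TPM + 1) of the 150 members (rows, ordered by rule value) in the 11 libraries (columns, white lines between groups). The watered columns are darker than the drought columns in each row, with library medians of 1.39 to 1.64, against 6.10 to 7.26 in the drought columns.

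Most members were low in watered roots. The median member stood at 2.13 TPM in OE normal and 1.68 TPM in WT normal, and 83.9% and 86.5% of tested loci stood at or above those levels. After drought it stood at 143.5 TPM in OE and 94.8 TPM in WT, levels that 5.76% and 9.38% of tested loci reached. In WT normal roots 58 members averaged under 1 TPM, 56 averaged 1 to 10 TPM, and 36 averaged at least 10 TPM. Each of the 6 drought libraries held at least 10 TPM for 127 members, and the lowest drought value of any member was 2.18 TPM.

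The highest ranked member has no accepted gene name. LOC_Os03g18030 (chromosome 3, 10038840 to 10044429, minus strand, in the files' own coordinates) stood at 567.5, 594.4 and 414.0 TPM in OE drought, against 77.2, 274.5 and 479.1 TPM in WT drought. It stood at 0.207 and 0.236 TPM in OE normal and at 0.276, 0.470 and 0.211 TPM in WT normal. WT drought replicate 3 lay inside the OE range, and the other WT drought libraries lay below it. The next in rank, LOC_Os01g56690 (chromosome 1, 32714779 to 32716417, plus strand), stood at 298.1, 244.4 and 209.8 TPM in OE drought, against 135.9, 191.4 and 107.5 TPM in WT drought, with no value above 0.625 TPM in watered roots.

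Of the 10 members with an accepted name, 4 belong to jasmonate synthesis or signaling. LOX8 and LOX9 encode lipoxygenases, which oxidise the fatty acids from which jasmonates are made, and lie 16.8 kb apart on opposite strands (LOX8 on chromosome 8, 25216363 to 25224080, and LOX9 at 25240906 to 25250279). LOX8 stood at 59.1, 41.8 and 42.1 TPM in OE drought, against 14.6, 18.6 and 28.5 TPM in WT drought, with at most 0.0632 TPM in any watered library. LOX9 stood at 97.1, 72.2 and 63.8 TPM in OE drought, against 22.0, 17.1 and 33.7 TPM in WT drought, with at most 0.400 TPM in watered roots. For both genes the OE drought libraries lay above all WT drought libraries. Among WT libraries replicate 3 was highest for both.

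AOS2, an allene oxide synthase that acts after the lipoxygenases, did not share that order (chromosome 3, 6608577 to 6610598). It stood at 103.7, 71.4 and 48.4 TPM in OE drought, against 120.9, 109.7 and 55.8 TPM in WT drought, so that the groups overlapped. In watered roots it averaged 1.22 ± 0.301 TPM in OE (SD, n = 2) and 0.781 ± 0.232 TPM in WT (SD, n = 3). TIFY9, a JAZ repressor of jasmonate signaling (chromosome 4, 19492574 to 19497154), stood at 151.1, 120.5 and 85.1 TPM in OE drought, against 40.1, 85.5 and 52.1 TPM in WT drought. Its groups overlapped by WT drought replicate 2, and it stood at 1.45 to 1.71 TPM in OE normal and 0.832 to 1.00 TPM in WT normal.

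Factors and proteins tied to dehydration formed another part of the named members. LIP9, a dehydrin, the class of protein that protects cells losing water (chromosome 2, 27165434 to 27166898), stood at 5421.4, 6008.6 and 3818.0 TPM in OE drought, against 1447.7, 2436.0 and 3534.0 TPM in WT drought. It was already abundant in watered roots, at 216.1 and 227.5 TPM in OE and 218.1, 241.0 and 224.7 TPM in WT. HOX24, a homeodomain-leucine zipper (HD-Zip I) factor (chromosome 2, 26143309 to 26144731), stood at 290.0, 210.3 and 110.5 TPM in OE drought, against 11.8, 7.45 and 16.0 TPM in WT drought. Its lowest OE drought value was above its highest WT drought value by a wide margin, and no watered library exceeded 0.345 TPM.

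DREB1F, a factor of the DREB1/CBF family (chromosome 1, 42727426 to 42728363), stood at 58.6, 86.5 and 37.7 TPM in OE drought, against 42.0, 70.3 and 9.59 TPM in WT drought. In OE normal it stood at 0.141 and 0.0885 TPM, and WT normal listed it at 0 in all 3 libraries. NAC132, a NAC-domain factor (chromosome 12, 1146995 to 1148742), stood at 72.2, 72.5 and 46.2 TPM in OE drought, against 27.1, 40.4 and 37.2 TPM in WT drought. The DREB1F groups overlapped and the NAC132 groups did not.

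The last 2 named members act on transport and on cytokinin. PDR9, an ABC transporter of the pleiotropic drug resistance family (chromosome 1, 24075065 to 24082181), stood at 306.9, 287.1 and 442.9 TPM in OE drought, against 104.4, 187.0 and 168.0 TPM in WT drought, against 1.92 to 1.99 TPM in OE normal and 1.47 to 2.11 TPM in WT normal. CKX5, a cytokinin oxidase that breaks cytokinins down (chromosome 1, 32788487 to 32792751), stood at 62.9, 38.5 and 43.2 TPM in OE drought, against 128.1, 142.8 and 45.8 TPM in WT drought. CKX5 was the only named member besides AOS2 with the lower mean in OE drought, and WT drought replicate 3 alone overlapped the OE values.

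**Figure D3:**
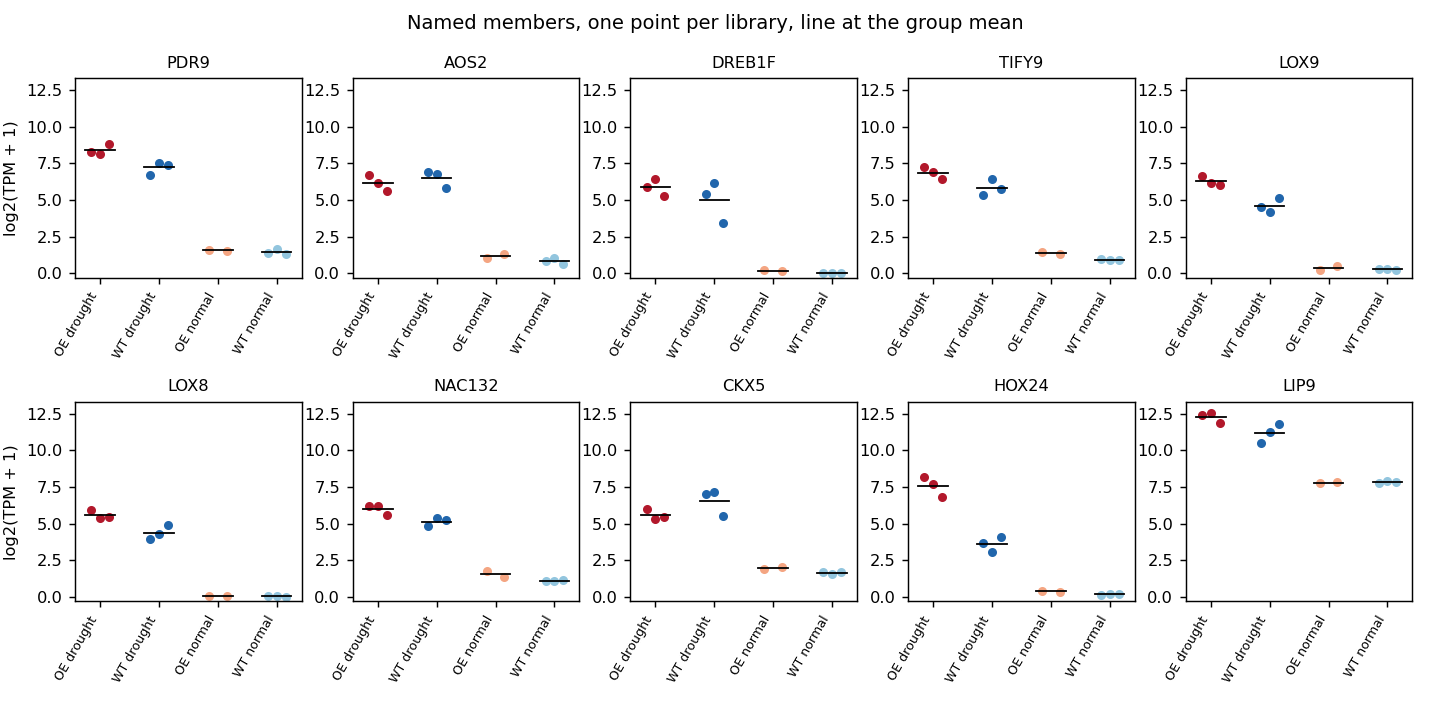
log2(TPM + 1) of the 10 named members, one point per library and a line at each group mean, in the order OE drought, WT drought, OE normal and WT normal. HOX24 has the widest gap between the drought groups, 3.96, and CKX5 and AOS2 have lower means in OE drought.

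Setting the drought libraries of OE against those of WT asks whether OsNMCP1 over-expression changes the level that drought-induced genes reach. Of the 150 members, all of which passed the filter on low values (1 TPM or more in 2 or more libraries), 24 were higher in OE drought and 1 was lower (limma on the 6 drought libraries, two-sided, Benjamini-Hochberg adjusted p under 0.05 over 23699 loci). That is 16.0% higher and 0.667% lower, where 5.24% of all tested loci were higher and 9.38% lower. The median difference of the members was 0.61 on the log2 scale, from -2.19 to 3.96, against -0.20 over all tested loci. It was above 0 in 117 members (78.0%), against 35.6% of all tested loci. In 54 members all OE drought libraries lay above all WT drought libraries (36.0%, against 12.4% of tested loci), and in 5 they lay below (3.33%, against 27.7%). Because this difference is made of the values in the rule, these shares describe the chosen members and do not test them as a set.

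The counts depended on single libraries. Without WT drought replicate 3, 47 members were higher and 10 lower (10.5% and 15.7% of all tested loci). Without WT drought replicate 1, 7 were higher and 0 lower, where 1.55% and 1.32% of tested loci were. Without WT drought replicate 2, 6 were higher and 0 lower (1.36% and 1.27% of tested loci). Leaving out OE drought replicate 1 gave 6 higher and 2 lower (2.43% and 2.27%), leaving out replicate 2 gave 3 and 0 (1.66% and 1.07%), and leaving out replicate 3 gave 22 and 1 (4.73% and 10.2%). With the spread estimated over all 11 libraries 56 members were higher and 6 lower, where 12.1% and 26.5% of tested loci were. The number of members above 0 moved less, between 109 and 121 over these 6 fits, against 33.6 to 38.6% of tested loci. With median-ratio scaling, which moves the median of all loci to -0.02, 123 members were above 0 against 48.3% of all tested loci, and 27 were higher and 0 lower, where 7.06% and 4.95% of tested loci were. The share of higher loci among all calls was 35.9% without that scaling and 58.8% with it.

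**Figure D4:**
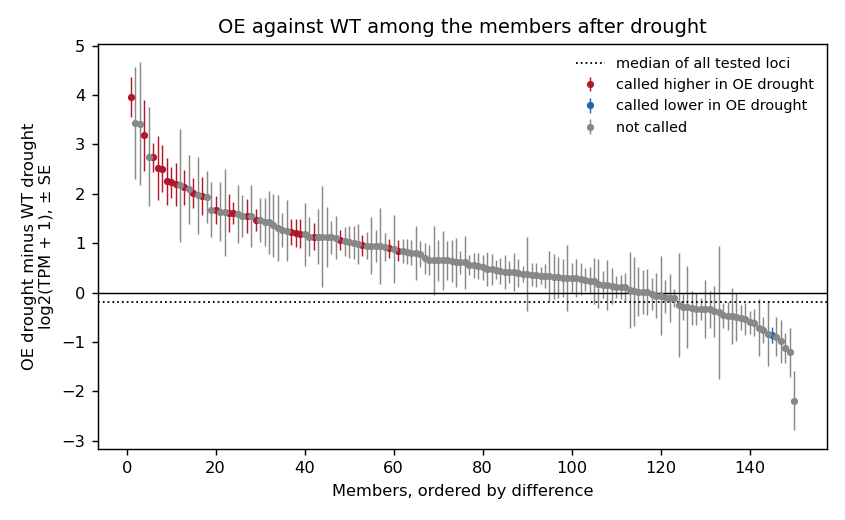
OE drought minus WT drought difference of each member on log2(TPM + 1), with the limma SE, ordered by size. Red points (24) were called higher and the blue point (1) lower, and the dotted line at -0.20 is the median of all tested loci.

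HOX24 showed the widest difference of the members. It was higher by 3.96 (SE 0.40, adjusted p = 0.00487, limma, n = 3 and 3) and stayed called in each of the 6 fits without 1 library, at 3.65 to 4.34. LOX9 was higher by 1.67 (SE 0.28, limma adjusted p = 0.0168), LOX8 by 1.21 (SE 0.28, limma adjusted p = 0.0357) and PDR9 by 1.19 (SE 0.29, limma adjusted p = 0.0399). The LOX9 call was lost without OE drought replicate 1 or 2 or WT drought replicate 1 or 2, at 1.46 to 1.71 and an adjusted p of up to 0.0652. The LOX8 and PDR9 calls were lost without any 1 of the libraries other than WT drought replicate 3, with an adjusted p of up to 0.112 for LOX8 and 0.111 for PDR9.

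The other 6 named members did not pass in the fit on the drought libraries. In the fit over all 11 libraries 3 of them did, with a limma adjusted p of 0.0141 for LIP9, 0.0154 for TIFY9 and 0.0137 for NAC132. LIP9 differed by 1.11 (SE 0.44, limma adjusted p = 0.125) and NAC132 by 0.84 (SE 0.25, limma adjusted p = 0.0628), although for both all OE libraries lay above all WT libraries. Without WT drought replicate 3 the LIP9 difference was 1.41 (limma adjusted p = 0.0527). TIFY9 differed by 1.02 (limma adjusted p = 0.0770) and DREB1F by 0.88 (limma adjusted p = 0.395). The DREB1F difference was 0.08 without WT drought replicate 3, its lowest drought library, and up to 1.46 without WT drought replicate 2. AOS2 differed by -0.34 (limma adjusted p = 0.546), and by -0.69 without WT drought replicate 3 and -0.07 without OE drought replicate 3. CKX5 differed by -0.99 (limma adjusted p = 0.162), and passed without WT drought replicate 3, at -1.50 (adjusted p = 0.0100). NAC132 passed without OE drought replicate 3, at 1.05 (adjusted p = 0.0376).

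Among members with no accepted name, LOC_Os10g41550 (chromosome 10, 22324198 to 22327665) stood at 394.3, 515.3 and 509.1 TPM in OE drought, against 16.8, 47.1 and 161.0 TPM in WT drought, a difference of 3.18 (SE 0.72, limma adjusted p = 0.0348). Over the 6 fits without 1 library that difference ran from 2.41, without WT drought replicate 1, to 4.01, and it was called in 1 of them. LOC_Os02g57810 (chromosome 2, 35409423 to 35411018) stood at 96.0, 91.6 and 48.2 TPM in OE drought, against 8.81, 10.6 and 11.9 TPM in WT drought, and was listed at 0 in all WT normal libraries. It was higher by 2.74 (SE 0.29, limma adjusted p = 0.00533) and, like HOX24, was called in all 6 fits without 1 library. LOC_Os09g37540 (chromosome 9, 21642728 to 21644897) was the 1 member called lower, at 64.7, 49.3 and 53.0 TPM in OE drought against 110.7, 99.8 and 93.9 TPM in WT drought, a difference of -0.86 (SE 0.17, limma adjusted p = 0.0247). That call was lost in 3 of the 6 fits without 1 library.

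Several markers of root cells and of shoot tissue differed in the same comparison. The 3 root markers, the silicon transporter genes LSI1 and LSI2 and the iron transporter gene IRT1, summed to 94.6 to 253.8 TPM in OE drought against 537.1 to 609.3 TPM in WT drought, and to 1711.3 to 1870.8 TPM in OE normal against 1894.1 to 1941.3 TPM in WT normal. LSI1 and LSI2 were called lower and IRT1 higher in OE drought. IRT1 averaged only 2.58 TPM in OE drought and 0.793 TPM in WT drought, where LSI1 averaged 120.2 and 358.4 TPM. It was thus close to the filter on low values and a small part of the sums. The 3 shoot markers CAB1R, CAB2R and RBCS summed to 43.6 to 185.9 TPM in OE drought against 317.2 to 591.7 TPM in WT drought, and to 327.8 to 330.3 TPM in OE normal against 799.2 to 1114.5 TPM in WT normal. CAB2R was called lower in OE drought, by -2.86 (limma adjusted p = 0.0348), while CAB1R at -1.33 (limma adjusted p = 0.103) and RBCS at -0.11 (limma adjusted p = 0.931) were not called. No marker was at 0 in any library. Their part in the members' difference was not tested, and in bulk roots fewer cells of a type and less RNA per cell cannot be told apart.

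**Figure D5:**
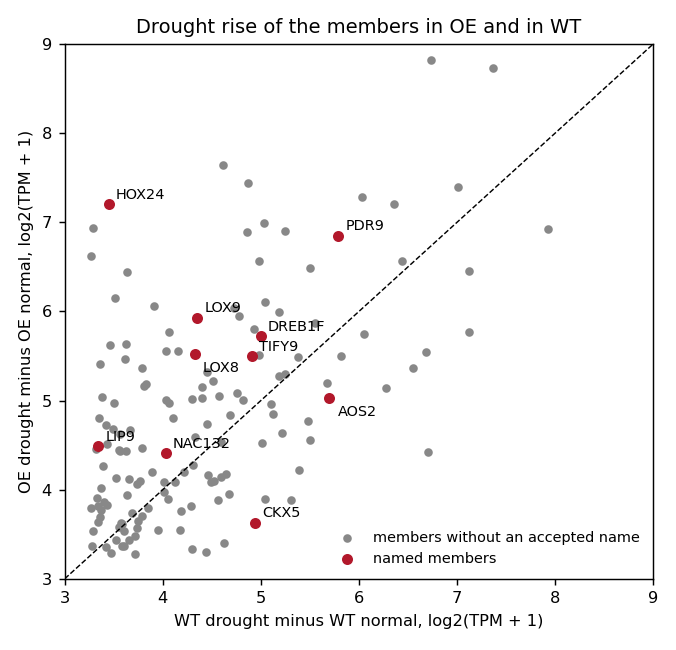
Drought minus normal difference of log2(TPM + 1) in OE (vertical) and in WT (horizontal) for the 150 members, with the named members in red and the line of equal rise dashed. The OE rise is the larger in 96 members, HOX24 lies far above the line (7.20 in OE, 3.45 in WT) and CKX5 below it (3.63 in OE, 4.94 in WT).

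The rise in OE minus the rise in WT had a median of 0.33 over the members, from -2.28 to 3.74, against -0.23 over all tested loci. That median was 0.13 with a pseudocount of 0.1 and 0.60 with median-ratio scaling. The difference of rises was above 1 in 41 members and below -1 in 12, and the share over all tested loci was not counted. HOX24 had the widest, 3.74, followed among named members by LOX9 at 1.58, LOX8 at 1.19, LIP9 at 1.14 and PDR9 at 1.06. CKX5 stood at -1.30 and AOS2 at -0.67. In watered roots the members differed between OE and WT by -1.59 to 0.69, with a median of 0.32 against 0.03 over all tested loci. The watered difference was above 0 in 123 members and at least 0.5 in 37, although the rule removed every locus at 0.7 or more. Here too the share over all tested loci was not counted. No such limit was set for loci high in watered WT. A high watered OE level makes the OE rise smaller for the same drought level. The direction of the difference of rises is therefore partly set by the rule.

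That limit shaped the membership. Without it 64 other loci would have entered, with rule values of 3.80 to 7.34, and 86 of the 150 would have stayed. Among the loci passed over were the JAZ repressor genes TIFY11A, TIFY11B, TIFY11D and TIFY11E, whose watered differences were 2.11, 1.66, 1.74 and 1.55, the DREB1 factor gene DREB1C at 1.69 and the NAC factor gene NAC4 at 0.82. Across the TIFY11 genes the rise was 3.87 to 5.24 in OE and 5.25 to 6.71 in WT. It was 5.87 in OE and 6.61 in WT for DREB1C, and 5.65 in OE and 5.56 in WT for NAC4.

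Other genes of the same pathways were read from lists of loci, of which few were members; the lists were drawn up with earlier results of these data known. Of 10 accepted JAZ genes, 1 was a member, and none was called in either direction between OE and WT after drought (limma, background 5.24% higher and 9.38% lower). Of 5 accepted jasmonate synthesis and signaling genes, 2 were members, and LOX8 was the 1 called higher. Leaving out the members, whose rises chose them, 8 of 9 JAZ genes and 3 of 3 jasmonate genes were called higher after drought in OE, and 7 and 3 in WT, with 0 lower in either. Of all tested loci 19.5% in OE and 20.0% in WT were called higher, and 49.0% and 44.4% lower. Median-ratio scaling turned that split to 7153 higher and 6492 lower in OE, and 6796 higher and 6961 lower in WT. Of 7 LEA and dehydrin genes LIP9 was the 1 member, and 4 of the 7 were called higher in OE drought than in WT drought, with LIP9 not among them. Among the 4 were RAB16C by 4.56 (SE 0.70, limma adjusted p = 0.0125) and LEA3 by 3.61 (SE 0.96, limma adjusted p = 0.0495). With median-ratio scaling 3 of the 6 genes other than LIP9 were called higher. Of 6 DREB genes 1 was a member, with 1 of the 6 called higher and 1 lower in OE drought. Both accepted HD-Zip I genes were called higher in OE drought, HOX22 by 2.12 (limma adjusted p = 0.0121) and HOX24. No clade A protein phosphatase gene was a member, and 5 of the 7 accepted were called higher in OE drought. Nor was any of 7 accepted diterpenoid phytoalexin genes a member, and 4 of these were called lower in OE drought.

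The spread between replicates was wider among the members than among all loci. The median within-group SD of log2(TPM + 1) was 0.335 in OE drought and 0.615 in WT drought, against 0.253 and 0.270 over all tested loci, and 0.102 in OE normal and 0.113 in WT normal, against 0.075 and 0.074. Within WT drought, replicate 1 was the lowest for 84 members, replicate 3 for 52 and replicate 2 for 14. In OE drought, replicate 3 was the lowest for 98. When each drought library was left out and 150 loci were chosen again by the same rule, 131 to 147 of the members were chosen again. In the library left out, the loci chosen without it stood above the watered mean of their genotype by a median of 3.85 to 4.84, against -0.60 to -0.28 over all tested loci. In 5 of these 6 choices all 150 loci were over 1 in the library left out, and without WT drought replicate 1 149 were, the exception standing at -5.92. These rises share the watered libraries with the choice.

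The members lay on all 12 chromosomes. Their median locus length was 2100 bases (235 to 9491), against 3163 bases over all tested loci. Chromosomes 1 and 5 held 22 members each, 0.651% and 1.12% of their tested loci, while chromosome 12 held 13 (0.982%) and chromosome 6 held 6 (0.313%). Pairs of members within 50 kb numbered 5, and in LOX8 and LOX9, 1 of these pairs, the rule values were 4.33 and 4.35. A further 5 members overlapped a locus on the opposite strand, among them none of the named members. Whether counting used the strand was not stated in the sources used here, so reads of such pairs cannot be told apart.

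The profiles of the named members differed in how closely they followed the middle of the set. Over the 11 libraries, the Pearson correlation with the median profile of the 150 was 0.997 for TIFY9 and for NAC132, 0.995 for PDR9, 0.947 for CKX5 and 0.915 for HOX24. These values are a description over libraries that fall into a drought and a watered cluster, which the rule itself separated.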

How the data were processed

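TPM and FPKM values and coverage were deposited by the authors for 55986 loci in each of 11 root RNA libraries; 18 ATAC-seq samples were not analysed here. Tools listed per the submitters' processing notes, without roles, that fit RNA are StringTie 1.3.6, STAR 1.5.2, SAMtools 1.9, FastQC 0.11.8, fastp and DESeq2. Build, annotation and strandedness were not stated in the sources used here. Coverage deposited by the authors served only for the implied depth, and read counts were not used, so no counting interval is given.

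From these values log2(TPM + 1) was computed, the 23699 loci that reached 1 TPM in 2 or more libraries were tested with limma 3.58.1 in R 4.3.3 (mean-variance trend, Benjamini-Hochberg, threshold 0.05), and the OE against WT drought contrast was fitted on the 6 drought libraries. On simulated data with the measured spread this fit recovered 11% of loci changed by log2 1 and 59% of those changed by log2 2, with 2 false calls among 23499 unchanged loci. Few loci were changed there, whereas 1242 were called higher and 2222 lower in the measured contrast. The adjusted threshold was therefore stricter in the simulation, and these shares are not the recovery in the measured data. The changed loci were also drawn only from those with a mean log2(TPM + 1) above 2. Nor are the shares the recovery among the members, whose median SD in WT drought was 0.615, against 0.27 over all tested loci. Python 3.11.15 made the tables and plots.

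The members and lists were chosen with earlier results of these data known. The rule named, among members with an accepted name, the 20 of highest rule value, the largest differences, list members and the most abundant member, which took all 10 named members. The tables hold no symbols, so loci were paired with names from knowledge of the genes. For 53 members outside the 17 lists this was done after their values were seen, often with several candidate symbols per locus, and 3 of the 53 were accepted. Acceptance required that the RefSeq gene table (ASM3414082v1) hold a candidate name as symbol or synonym, with or without a leading Os. The entry had to lie on the same chromosome within 5 Mb and at a length ratio of 0.9 to 1.1. After seeing the accepted names, 3 more were refused because their symbol or entry was shared. Of 178 loci written, 82 were accepted, while 0.087% of 35600 draws of random loci were. These draws came from all chromosomes, so that share does not measure how often a name falls on a neighbouring or related locus. Names found only by looking up the table at a member's position were discarded, and 4 list members without an accepted name stay unnamed.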

Additional observations from a re-analysis of the deposited data

How the results depend on the processing

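The number of members called between OE and WT after drought moved with the setting, and the cause was not tested. Against 24 called higher and 1 lower among the 150, the fit over all 11 libraries gave 56 and 6, the fit with no filter 10 and 1, the fit with the replicate block 10 and 0 and median-ratio scaling 27 and 0; leaving out 1 library gave 3 to 47 higher and 0 to 10 lower. For all loci, 1242 higher and 2222 lower, the 11 libraries gave 2861 and 6283, no filter 945 and 1213, the replicate block 646 and 727, median-ratio scaling 1674 and 1172, and leaving out 1 library 323 to 2479 and 253 to 3712. The fit with no filter covered 34485 loci, 2.74% of them higher and 3.52% lower. The block gave 2.73% and 3.07% of 23699 loci. The 24 kept their direction in every fit without 1 library and were all called with 11 libraries and with median-ratio scaling, while 10 of them were called with no filter and 9 of them with the block. The replicate numbers gave no sign of pairing the samples: same-numbered OE and WT drought libraries deviated together at -0.04, 0.022 and -0.132. No library matched its own number best: OE replicate 1 went with WT replicate 2 (0.08), OE 2 with WT 3 (0.183) and OE 3 with WT 1 (0.252). Deviations from a mean of 3 libraries are not independent of each other, so these values cannot settle the pairing.

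Loci called higher in OE after drought numbered 4616, 7153 with median-ratio scaling and 2934 to 5104 without 1 library; in WT they numbered 4728, 6796 with median-ratio scaling and 3647 to 5573 without 1 library. The members' median difference of 0.61 ranged from 0.47 to 0.75 without 1 library. The median of the OE rise minus the WT rise, 0.33, with alternatives chosen after seeing the data, ranged from 0.22 to 0.51 without 1 library and was 0.13 with a pseudocount of 0.1 and 0.60 with median-ratio scaling. Of the 150 members, 72 were chosen again with a pseudocount of 0.1, 86 without the watered limit, 140 with median-ratio scaling and 131 to 147 without 1 library. Of 120 alternative values for the named members 97 kept their side of the threshold, 18 lost it, 5 passed it and 0 turned. In the simulation, where few loci were changed, most differences of log2 1 were not called with 3 libraries a group. Among the members the smallest difference called higher was 0.85.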
